A study of Schizosaccharomyces pombe with 22 samples.

Results

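Heat shock was compared with growth in rich media at exon-exon junctions of rarely used introns of the fission yeast Schizosaccharomyces pombe. The comparison used 4 of the 22 libraries of the series, 1 for each strain in each condition. The 2 heat shock libraries came from the wild type 972h- and from a deletion of dbr1 in the 972h- background. The 2 rich media libraries came from the same strains grown at 30 °C. The labels give neither the temperature nor the length of the heat shock. Each strain has 1 library per condition, so no strain is replicated within a condition and the strains serve as the replicates. The p-values of the fits rest on how unlike the 2 strains respond, with the diauxic shift libraries included. All 4 libraries were made from poly(A) RNA. Beside them, the series holds 2 diauxic shift libraries of the same strains, and 2 libraries each of an upf1 deletion in ED668 and of ED668, for which no heat shock is labelled. It also holds 12 lariat libraries of the dbr1 deletion. The level of the dbr1 transcript itself was not analysed here.

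A spliced intron leaves the RNA as a lariat, a loop closed at the branch point, and the exons on either side are joined. The enzyme encoded by dbr1 opens the loop so that the intron can be degraded, and lariats accumulate without it. A sequencing read that spans the joined exons is a record of the splicing event in the mature RNA. Many introns joined at unusual sites give RNAs with an early stop codon, and such RNAs are degraded by nonsense-mediated decay, for which Upf1 is required. In heat shock, cells are known to raise chaperone transcripts and to lower those for ribosome production.

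The junctions had been found through lariats and fall into 2 tables. One lists alternate 5′ or 3′ splice sites of annotated introns, and the other lists introns absent from the annotation the authors used. After junctions with several branch points were counted once, 10352 distinct junctions remained, and 1455 of them had a read in any of the 4 libraries. Junction reads were expressed per 1000000 aligned reads of the library (RPM). Aligned reads ranged from 12433793 to 16836042 over these 4. All 10352 introns begin with GT and end with AG on the strand given, so a junction could be assigned to a strand from its own splice sites. Over all junctions, the heat shock libraries had 361.7 RPM in the wild type and 250.6 in the dbr1 deletion. The rich media libraries had 267.9 in the wild type and 229.1 in the dbr1 deletion. The heat shock and rich media ranges overlap. The ratio of heat shock to rich media was 1.35 in the wild type and 1.09 in the dbr1 deletion, with 95% counting intervals of 1.29 to 1.41 and 1.05 to 1.14.

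The first intron bases of 6 of the junctions described below are shown here, so that each intron can be found and the alternate sites can be read beside the annotated ones. In each line, 10 exon bases and then 15 intron bases are written 5′ to 3′, with the first 6 intron bases in capitals. The annotated 5′ sites of aha1 and rad25 stand beside the downstream sites read in heat shock, which are labelled heat shock site. Both downstream sites also had reads in the upf1 deletion, in ED668 and in diauxic shift. Positions are those of the authors' build, ASM294v2, counted from 1 and covering the intron.
aha1, heat shock site, chrII:2149465-2149531, plus strand: atcgtcaaagGTTTGGaatatttac
aha1, annotated site, chrII:2149157-2149531, plus strand: ccaataactgGTATGTacagtagtg
rad25, heat shock site, chrI:3583996-3584157, minus strand: acaccgttctGTAGGTaaacctcaa
rad25, annotated site, chrI:3583996-3584712, minus strand: cgctacgaagGTATGTgataaggat
SPNCRNA.1282, chrIII:2291996-2292083, plus strand: atttccaaagGTATAAcctcttttt
sap49, chrI:2989591-2989642, plus strand: aagagatagaGTAAGGaatagtcat
mamRNA locus, chrII:1308191-1308417, plus strand: gtttgtaaagGTATGTtcgccgtat
sce3, chrII:1775328-1775391, minus strand: aataaaacagGTATAAataaacaca

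Of 301 junctions with at least 10 reads over the 6 libraries of the wild type and the dbr1 deletion, 14 were higher in heat shock and 1 was lower. These are 4.65% and 0.332% of those tested, by edgeR's quasi-likelihood test with strain as a term and a Benjamini-Hochberg adjusted p below 0.05. The median log2 change over the 301 junctions was 0.46, with 187 above 0 and 114 below 0. The 14 included a downstream 5′ site in the chaperone gene aha1 and an intron inside the splicing factor gene sap49. Also among them were 5 of the 57 tested introns antisense to a transcript, or 8.77% of that class. Of these 5, 2 belong to 1 RNA. In each of the 14, both heat shock libraries were above both rich media libraries. The read filter counted heat shock reads, and some of the 14 passed it only through them, as named below. Groups did not overlap, with heat shock higher, at 86 of the 301 junctions (28.6%), and with heat shock lower at 41 (13.6%). The count of 14 depended on each library. It was 2 without the wild type heat shock library, 7 without the dbr1 deletion heat shock library, and 8 without either rich media library. The 2 that were called in all 4 of these fits were those of aha1 and SPNCRNA.1282. With the diauxic shift libraries left out of the fit, 22 junctions were called higher, among them all 14.

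The smallest adjusted p was that of aha1 (SPBC1711.08), which encodes an activator of the Hsp90 ATPase. The reference annotation gives the gene an intron in its coding sequence, and the 5′ site read in heat shock lies within it, 308 bases downstream of the annotated one. The 3′ site is shared. The junction had 69 reads in the wild type and 109 in the dbr1 deletion in heat shock, against 0 and 1 in rich media. In RPM these are 4.54 and 6.47 in heat shock, against 0 and 0.0641 in rich media. Both heat shock libraries were far above both rich media libraries, and the dbr1 deletion was the higher of the heat shock pair. The pooled ratio was 155.8, with a 95% counting interval from 27.6 to 6189, since it rests on 1 read in rich media. The log2 change was 7.02 ± 0.90 (SE) with an adjusted p of 6.53e-12. The distance of 308 bases is not a multiple of 3. Reads at the annotated junction of aha1 were not analysed here, so use of the site and the amount of the aha1 transcript cannot be told apart.

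The other alternate site called was in rad25 (SPAC17A2.13c), which encodes a 14-3-3 protein. Its heat shock site also lies downstream of the annotated 5′ site, by 555 bases, and starts the intron with GTAGGT. The junction had 14 reads in each heat shock library and 0 in each rich media library. The pooled ratio had a lower 95% counting bound of 6.22. With the rich media reads set at 3 over the pair, the level was 8.17-fold higher in heat shock (adjusted p = 0.0151). The junction was not called with edgeR's filterByExpr filter (adjusted p = 0.247) or with no filter beyond 1 read (adjusted p = 0.144). It was no longer called without any 1 of the 4 libraries.

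**Figure D1:**
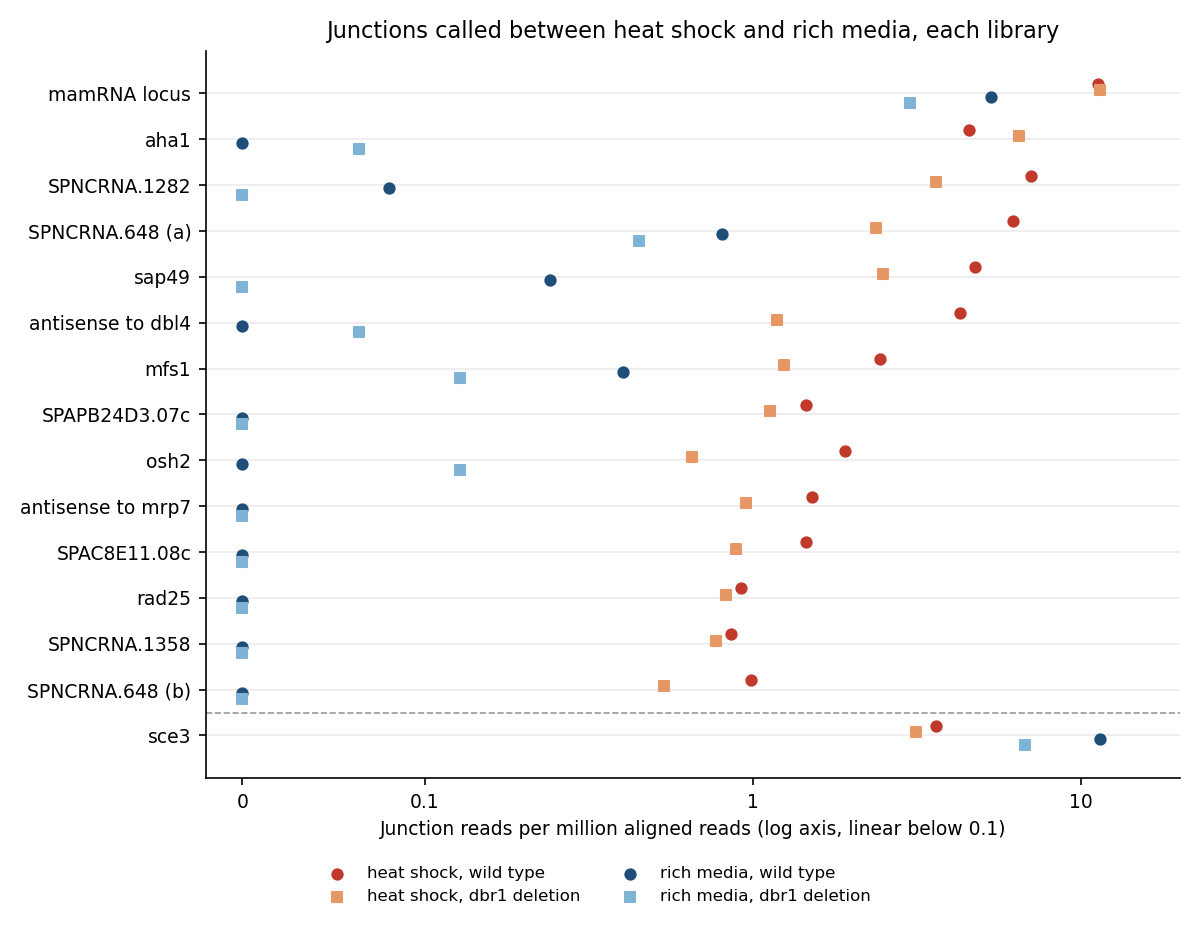
RPM, reads per 1000000 aligned reads (horizontal axis, logarithmic above 0.1) of the 15 called junctions in each of the 4 libraries, with heat shock in red and orange and rich media in blue. In the upper 14 rows both heat shock points lie right of both rich media points, and 6 of these have 0 reads in both rich media libraries. In sce3, below the dashed line, they lie left.

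In the splicing factor gene sap49 (SPAC31G5.01), which encodes a subunit of the U2 snRNP, an intron of 52 bases was spliced out of an exon. The junction had 72 and 42 reads in heat shock and 3 and 0 reads in rich media, wild type first. Heat shock was higher in both strains, and the wild type library was the higher of the heat shock pair. The pooled ratio was 33.3 (95% counting interval 11.1 to 163.7), and the log2 change was 4.93 ± 0.85 (SE, adjusted p = 9.54e-07). In mfs1 (SPAC17C9.16c), a membrane transporter gene, an intron of 88 bases inside an exon had 37 and 21 reads in heat shock and 5 and 2 in rich media. Its log2 change was 2.79 ± 0.78 (adjusted p = 0.00956). In osh2 (SPBC2F12.05c), a gene of the oxysterol-binding protein family, an intron of 63 bases inside an exon had 29 and 11 reads in heat shock and 0 and 2 in rich media. Its log2 change was 3.95 ± 1.22 (adjusted p = 0.0241). These 3 introns inside exons come from 26 of their class that were tested.

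Among the antisense introns, that of SPNCRNA.1282 had the most heat shock reads of those called. This noncoding RNA runs opposite to thp1, a uracil DNA glycosylase gene. Its junction had 107 reads in the wild type and 61 in the dbr1 deletion in heat shock, against 1 and 0 in rich media. Both heat shock libraries were far above both rich media libraries, by a pooled ratio of 147.1 (95% counting interval 26.04 to 5843). The log2 change was 6.90 ± 0.91 (SE, adjusted p = 2.28e-11). No read of it was found in either diauxic shift library.

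The 2 introns of SPNCRNA.648 that were called are both opposite to mre11, which encodes a nuclease of double-strand break repair. The first, of 55 bases, had 94 and 40 reads in heat shock and 10 and 7 in rich media, a log2 change of 2.71 ± 0.62 (adjusted p = 0.000792). The second, of 66 bases, had 15 and 9 reads in heat shock and 0 in both rich media libraries (adjusted p = 0.0241). With rich media set at 3 reads over the pair, its level was 7.003-fold higher. The lower 95% counting bound on its ratio was 5.27. The call of this second intron was lost with no filter beyond 1 read (adjusted p = 0.241) and with DESeq2 in place of edgeR. Both introns belong to 1 RNA and are not independent of each other. An intron of 168 bases opposite to dbl4, within SPNCRNA.529, had 65 and 20 reads in heat shock and 0 and 1 in rich media (log2 change 5.76 ± 1.14, adjusted p = 4.88e-05). An intron of 87 bases opposite to mrp7, a mitochondrial ribosomal protein gene, had 23 and 16 reads in heat shock and none in rich media. With rich media set at 3 reads over the pair, its level was 11.4-fold higher (adjusted p = 0.00404). The ratio's lower 95% counting bound was 8.82, and the call was lost with DESeq2 in place of edgeR (adjusted p = 0.422). In each of these the wild type heat shock library was the highest of the 4.

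The mamRNA locus holds the called junction with the most reads. mamRNA is a noncoding RNA known to bind regulators of meiotic transcripts, and the authors classed the intron as intergenic. The junction had 171 and 193 reads in heat shock, against 66 and 47 in rich media. In RPM these are 11.3 and 11.5 in heat shock, against 5.31 and 3.01 in rich media. The ratio was 2.12 in the wild type and 3.81 in the dbr1 deletion, and the log2 change was 1.44 ± 0.37 (SE, adjusted p = 0.00386). Without this junction, the summed level of intergenic introns was 21.9 and 14.02 RPM in heat shock and 20.5 and 15.6 in rich media.

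Of 42 introns tested in 3′ untranslated regions, 2 rose and 1 fell, and the 2 are 4.76% of the class beside 4.65% over all junctions tested. SPAPB24D3.07c had 22 and 19 reads of an intron of 52 bases in heat shock and none in rich media (adjusted p = 0.000792). Its level was 11.96-fold higher with rich media set at 3 reads, and the ratio's lower 95% counting bound was 9.30. SPAC8E11.08c had 22 and 15 reads of an intron of 95 bases in heat shock and none in rich media (adjusted p = 0.00541). By the same rule its level was 10.8-fold higher, with a lower counting bound of 8.35 on the ratio. Its call was lost with edgeR's filterByExpr filter (adjusted p = 0.0544). The noncoding RNA SPNCRNA.1358 had 13 reads in each heat shock library and none in rich media (adjusted p = 0.0238). By the same rule its level was 7.59-fold higher, with a lower counting bound of 5.74 on the ratio. It had no diauxic shift read either, so it passed the read filter through heat shock alone. The same holds for aha1, rad25, SPNCRNA.1282, SPAC8E11.08c, the second SPNCRNA.648 intron and the introns opposite to dbl4 and mrp7. Their rich media and diauxic shift reads fell short of the 10 needed. Its call was lost with DESeq2 (adjusted p = 0.0973), with filterByExpr (adjusted p = 0.389) and with no filter beyond 1 read (adjusted p = 0.241). The junction that fell was in sce3 (SPBC18H10.04c), which encodes an RNA-binding translation factor. It had 55 and 53 reads in heat shock, against 142 and 105 in rich media. In RPM these are 3.62 and 3.15 in heat shock, against 11.4 and 6.73 in rich media. The log2 change was -1.36 ± 0.37 (SE, adjusted p = 0.00797). The call was lost without the wild type heat shock library or without either rich media library.

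The remaining large decreases did not pass the test. An intron in the 3′ untranslated region of fib1, the fibrillarin gene of ribosomal RNA processing, had 0 and 1 reads in heat shock and 3 and 6 in rich media (log2 change -3.07 ± 1.75, adjusted p = 0.425). A junction of lsc1, a succinate-CoA ligase gene, had 6 and 0 reads in heat shock and 8 and 18 in rich media (adjusted p = 0.366). The authors classed it as an upstream 5′ site, and it is an annotated intron in the reference used here. The intron in the 5′ untranslated region of ssn6, a transcriptional corepressor gene, had 0 and 2 reads in heat shock and 5 and 3 in rich media (adjusted p = 0.614). The others with the largest log2 decreases alike in both strains were in SPNCRNA.960, wtf22, ppk27, tfs1 and msm1 and in an intergenic intron, each with at most 2 heat shock reads in a library. wtf22 belongs to a family of near-identical genes, so its reads are uncertain.

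The strain pairs were also set beside each other. Among 114 junctions with at least 20 reads over the 4 libraries, which include the 15 called, 41 were higher in heat shock in both strains and 31 were lower in both. A further 27 were higher in the wild type only and 15 in the dbr1 deletion only. Spearman's rho between the log2 ratios of the strains was 0.56 across these 114 junctions, which share their 2 libraries per strain and are not replicates. Without the 15 called, 27 of 99 were higher in both strains, 30 were lower in both, and rho was 0.36. The response could not be tested for a difference between strains, since each strain has 1 library per condition.

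**Figure D2:**
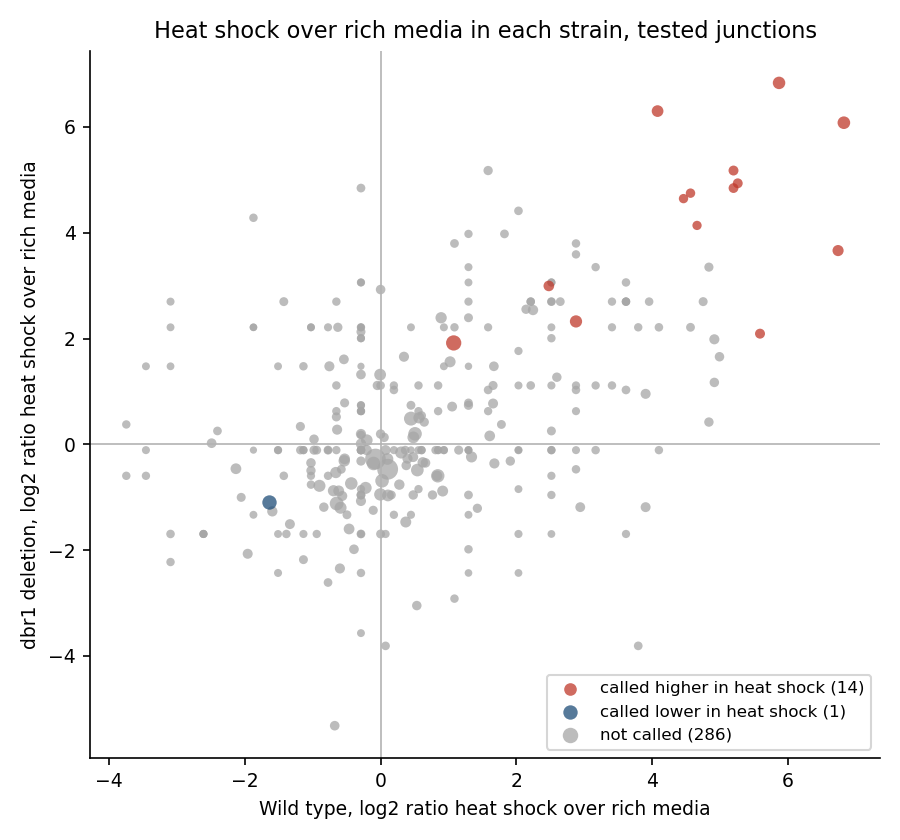
Log2 ratio of heat shock to rich media in the wild type (horizontal axis) and in the dbr1 deletion (vertical axis) for the 301 tested junctions, with 0.5 reads added to each count and point area growing with reads. The 14 junctions called higher lie in the upper right and sce3 lies in the lower left.

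By class, the summed reads of downstream 5′ sites, upstream 3′ sites, introns inside exons and introns antisense to a transcript were higher in both heat shock libraries. Downstream 5′ sites had 22.3 and 20.4 RPM in heat shock, against 8.12 and 10.6 in rich media. Without aha1 they had 17.8 and 13.9 in heat shock, against 8.12 and 10.6 in rich media, so the groups still did not overlap. Upstream 3′ sites had 21.5 and 17.7 in heat shock, against 12.2 and 13.5 in rich media. Introns antisense to a transcript had 51.8 and 31.8 in heat shock, against 21.7 and 17.7 in rich media. Without SPNCRNA.1282 these had 44.8 and 28.2 in heat shock, against 21.6 and 17.7 in rich media. Introns inside exons had 43.1 and 22.9 in heat shock, against 22.8 and 15.5 in rich media, a difference that is narrow between the dbr1 deletion in heat shock and the wild type in rich media. Upstream 5′ sites were the reverse, with 21.6 and 14.4 in heat shock, against 21.96 and 21.7 in rich media. The wild type pair differed by less than counting error there (ratio 0.984, 95% counting interval 0.835 to 1.16). Without rpl2502, upstream 5′ sites overlapped, with 16.7 and 11.998 in heat shock and 14.3 and 16.5 in rich media. For each of these 5 classes the exact two-sided permutation p was 0.3333, the smallest that 2 libraries against 2 allow.

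The other classes overlapped between conditions. Introns in 3′ untranslated regions, the class with the most reads, had 100.8 and 78.3 RPM in heat shock and 97.1 and 86.0 in rich media. The ratio was 1.04 in the wild type and 0.911 in the dbr1 deletion. Introns of noncoding RNAs had 20.3 and 13.3 in heat shock and 19.4 and 14.3 in rich media. Introns in 5′ untranslated regions had 15.1 and 5.999 in heat shock and 13.4 and 7.50 in rich media. In both of these classes, as over all junctions, the wild type library was above the dbr1 deletion library in each condition.

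**Figure D3:**
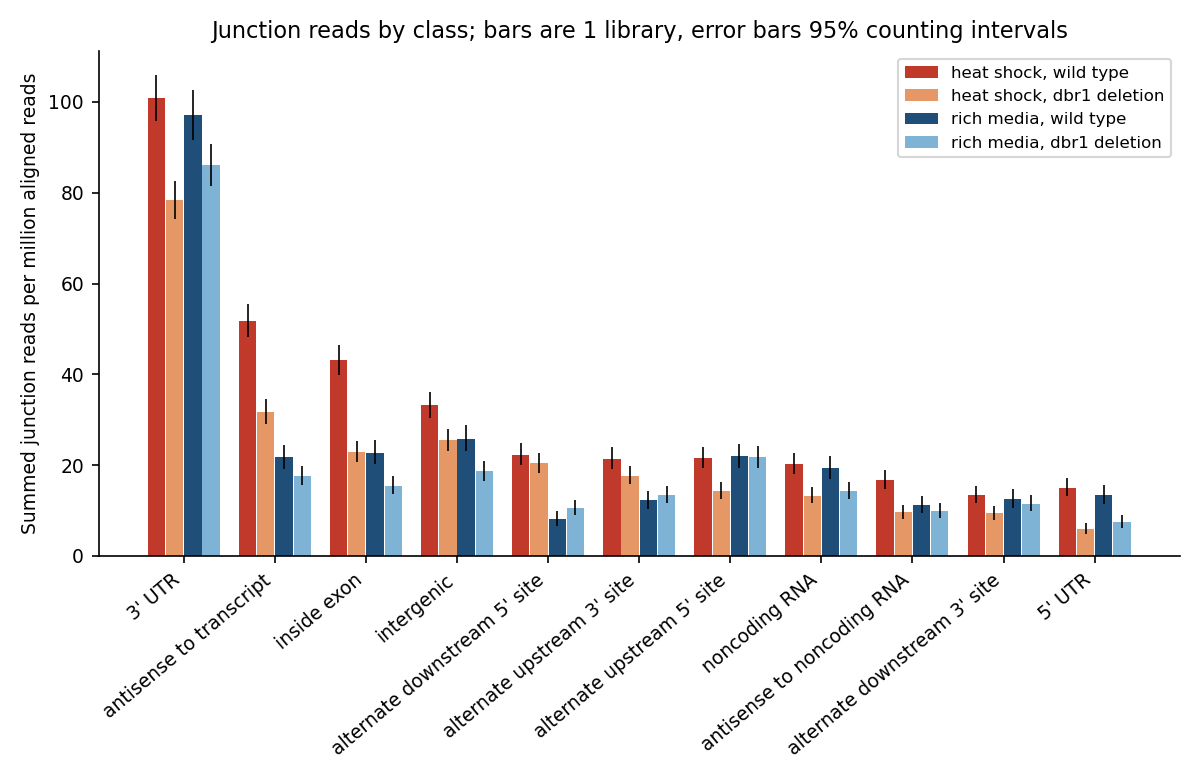
Summed junction reads in RPM by class, 1 bar per library, with heat shock left of rich media within each class and 95% counting intervals as error bars. Downstream 5′ sites, at 22.3 and 20.4 in heat shock and 8.12 and 10.6 in rich media, are the alternate-site class with the widest gap between conditions.

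At the level of detection, 136 junctions had a read in both heat shock libraries and in neither rich media library, and 43 had the reverse pattern. The heat shock library had more aligned reads than the rich media library in each strain. Of the 136, 81 also had a read in ED668 and 79 had one in diauxic shift. In 34, a read was found in neither of those. A total of 165 junctions had a read in all 4 libraries.

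Of the 10 junctions with the most reads, 2 were called, those of the mamRNA locus and sce3 described above, and 8 were not. The first of 2 introns in the 3′ untranslated region of tom7, a subunit of the mitochondrial import receptor complex, had 603 and 425 reads in heat shock and 459 and 546 in rich media (log2 change -0.18 ± 0.19 SE, adjusted p = 0.801). The second had 508 and 479 in heat shock and 438 and 538 in rich media, with a log2 change of the same size. Both tom7 introns were listed as unannotated by the authors and are in the reference annotation used here, which holds 15 of the 301 junctions tested and none of the 14 called higher. An upstream 3′ site of vma13, a subunit of the vacuolar proton pump, had 87 and 100 reads in heat shock and 52 and 66 in rich media (log2 change 0.47 ± 0.37, adjusted p = 0.665). An upstream 5′ site of the ribosomal protein gene rpl2502 had 74 and 40 reads in heat shock and 95 and 81 in rich media (log2 change -0.88 ± 0.40, adjusted p = 0.301). rpl2502 has a close paralog, so the split of reads between the copies is uncertain. An intron inside an exon of elo1, a fatty acid elongase gene, had 74 and 57 reads in heat shock and 65 and 68 in rich media. SPNCRNA.1597 had 82 and 46 in heat shock and 66 and 69 in rich media. An intron antisense to SPNCRNA.851 had 89 and 67 in heat shock and 51 and 54 in rich media, and one at chrII:1156883-1157074 had 108 and 37 in heat shock and 49 and 52 in rich media. None of these 8 passed the test.

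Few junctions of the gene groups most often followed in heat shock had enough reads to test. Of 60 junctions in heat shock proteins and chaperones, 3 had a read in the 4 libraries and 1 was tested, that of aha1. Of 39 in genes of the core stress response, 1 was tested, a downstream 3′ site of the glutaredoxin gene grx1 with 1 and 4 reads in heat shock and 0 in rich media. It did not pass the test (adjusted p = 0.568). Of 147 junctions in splicing factor genes, 6 were tested and 1 was called, in sap49. The median log2 change of the 6 was 1.72, beside 0.46 over all junctions tested, and 5 of the 6 were above 0. An upstream 3′ site of prp10, another U2 snRNP subunit gene, had 46 and 25 reads in heat shock and 20 and 4 in rich media (log2 change 1.48 ± 0.65, adjusted p = 0.286). An intron in the 3′ untranslated region of lsm4, an Sm-like protein gene, had 5 and 19 reads in heat shock and 1 and 0 in rich media (adjusted p = 0.0964). The other lsm4 intron, which overlaps it, had 2 and 3 reads in heat shock and 0 and 1 in rich media.

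In ribosome production, no junction was called on reads. For cytoplasmic ribosomal proteins, 2 of 165 junctions were tested, rpl2502 and a downstream 5′ site of rps1701 with 14 and 2 reads in heat shock and 8 and 4 in rich media. The median log2 change of the pair was -0.44. For ribosome biogenesis, 4 of 107 were tested with a median of 2.17 and 3 above 0. They were in rrp8, bms1, utp3 and fib1, with at most 6 reads in any of the 4 libraries. The rrp8 intron, with 3 and 6 reads in heat shock and 0 and 1 in rich media, was called on the PSI described below (0.0561 and 0.169 in heat shock, 0 and 0.0101 in rich media, adjusted p = 0.0331). None of the 56 junctions in translation factors had enough reads, and 1 of 72 in RNA decay genes did, in ski3, with 3 and 4 reads in heat shock and 0 in rich media.

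Of the other lists, respiration and mitochondria had 11 of 223 junctions tested and none called, with 5 above 0, 6 below 0 and a median log2 change of -0.18. Beside tom7 these included tim9, an import chaperone gene, with 55 and 19 reads in heat shock and 32 and 16 in rich media, and coq4, a gene of ubiquinone synthesis, with 9 and 9 in heat shock and 9 and 18 in rich media. Ubiquitin and proteasome had 4 of 156 tested, 2 in ubc7 and 1 each in pup2 and ubc14, and none was called. The ubc7 upstream 5′ site had 14 and 10 reads in heat shock and 8 and 11 in rich media. Meiosis and mating had 4 of 166 tested and none called, in mug115, spo12, mug64 and mug108. mug115 had 10 and 0 reads in heat shock and 0 in rich media, and mug108 had 0 in all 4 libraries. Membrane traffic had 4 of 240 tested and 1 called, in osh2. A downstream 5′ site of ypt1, a Rab GTPase gene of secretion, had 21 and 37 reads in heat shock and 20 and 61 in rich media (log2 change -0.61 ± 0.47, adjusted p = 0.665).

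The second measure of the same libraries was the deposited PSI (percent spliced in), given by the authors as a fraction from 0 to 1 for the unannotated introns. It uses the same junction reads and is not independent of them. The sources used here do not say how its denominator was counted. PSI was 0 wherever a library had no junction read, so a 0 can mean no splicing or no coverage. Of 135 introns with at least 10 reads over the 4 libraries, 23 had a higher PSI in heat shock and 1 a lower one, 17.0% and 0.741%, by limma on the arcsine square root scale. Of the 23, 16 had a PSI of 0 in both rich media libraries and 15 had fewer than 20 reads over the 4 libraries. The filter counted reads of the libraries compared, so an intron with no rich media read passed it through heat shock alone. With at least 20 reads, 10 were called higher, 7 of them among the 23. On the PSI as deposited 5 were called higher, and with at least 5 reads 0 were. The count was 2 without the dbr1 deletion heat shock library and 0 without any 1 of the other 3 libraries.

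Of the 14 junctions called higher on reads, 12 had a PSI to test, and 11 of these had a higher PSI in heat shock in both strains, as did 67 of the 135. The PSI call was also made for 6 of them, of which 5 had no rich media read and therefore a PSI of 0 there. SPNCRNA.1282 had a PSI of 0.530 and 0.389 in heat shock and 0.0183 and 0 in rich media, wild type first (adjusted p = 0.0152). SPAC8E11.08c had 0.772 and 0.536 in heat shock and 0 in both rich media libraries (adjusted p = 0.0211). In both, the heat shock libraries were far above rich media. The other PSI calls among the 14 were for the intron opposite to mrp7, with 0.148 and 0.153 in heat shock, for SPNCRNA.1358, with 0.143 and 0.147, for the second intron of SPNCRNA.648, with 0.178 and 0.154, and for SPAPB24D3.07c, with 0.0148 and 0.0090. All 4 had 0 in rich media. In sap49, PSI was 0.296 and 0.191 in heat shock and 0.0522 and 0 in rich media (adjusted p = 0.0606).

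The mamRNA intron was the exception, with a PSI of 0.549 and 0.615 in heat shock and 0.767 and 0.352 in rich media. The 2 conditions overlapped there, though its reads had not. PSI also overlapped in sce3, with 0.827 and 0.779 in heat shock and 0.805 and 0.656 in rich media, where reads had fallen.

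**Figure D4:**
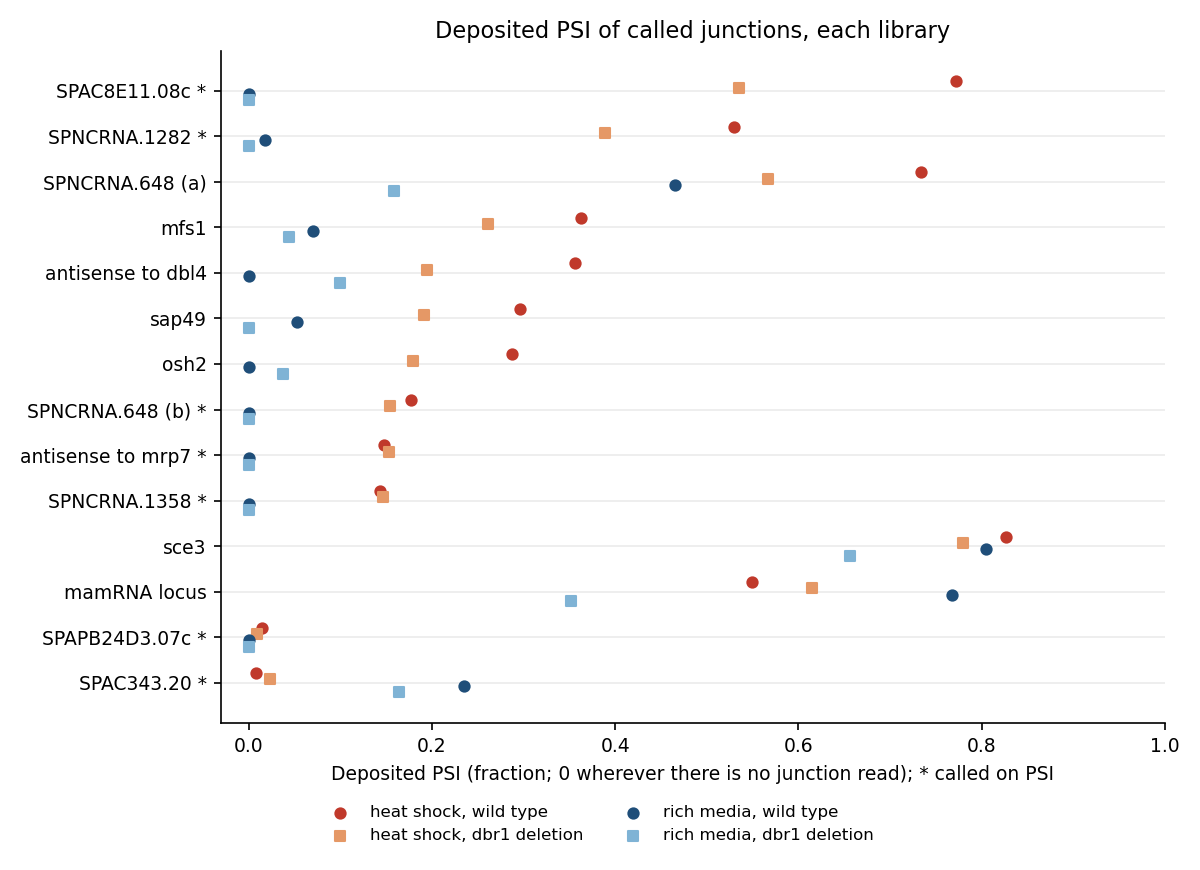
Deposited PSI (horizontal axis, a fraction) in each library for the called junctions that have one and for SPAC343.20, with an asterisk where PSI was called. Heat shock points lie right of rich media points in the upper 10 introns and in SPAPB24D3.07c, overlap them in sce3 and the mamRNA locus, and lie left of them in SPAC343.20.

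PSI and reads went apart in SPAC343.20. An intron of 108 bases in its 3′ untranslated region had the only lower PSI call, with 0.0082 and 0.0238 in heat shock and 0.235 and 0.164 in rich media (adjusted p = 0.0383). Its junction reads were 22 and 60 in heat shock and 18 and 22 in rich media (log2 change 0.64 ± 0.55, adjusted p = 0.723), so they did not fall with PSI. The intron lies opposite to rds1, a gene known to respond to nutrient and other stress. Among the other PSI calls with the largest change were 2 introns of ckk2, a calmodulin-dependent kinase kinase gene, that share their 3′ site. They had 17 and 5 reads and 16 and 3 reads in heat shock and none in rich media, and the first missed the threshold on reads (adjusted p = 0.0517). An intron of spo12, a cell cycle gene, had 7 and 3 reads in heat shock and none in rich media, with a PSI of 0.275 and 0.261 in heat shock. SPNCRNA.561, SPNCRNA.1133, SPNCRNA.1215 and an intergenic intron at chrII:3089676-3089744 completed the 10, with 2 to 19 reads in a heat shock library and at most 2 in a rich media library.

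The ED668 and upf1 deletion libraries had no part in the calls. All 14 junctions called higher had a read in ED668. In 13 of them, pooled heat shock libraries were above pooled ED668 libraries with a 95% counting interval above 1, as were 51 of all 301 tested (16.9%). The exception was the mamRNA junction, with 918 reads in ED668 and a ratio of heat shock to ED668 of 0.787. Among the 13, this ratio ranged from 1.78 at SPNCRNA.1358 (95% counting interval 1.01 to 3.13) to 353.5 at aha1. At the other junctions with no rich media read, it was 3.39 for SPAPB24D3.07c, 3.87 for SPAC8E11.08c and 27.8 for rad25. It was 47.7 for the second SPNCRNA.648 intron and 77.4 for the intron opposite to mrp7. For aha1, the ED668 libraries had 1 and 0 reads. For sce3, they had 1200 and 1477, and heat shock was at 0.0801 of the ED668 level. ED668 is another strain with its own libraries, and strain, library and condition cannot be told apart in these ratios. The diauxic shift libraries were part of the fit that made the calls. In 13 of the 14, both of them were below both heat shock libraries, as they were in 55 of the 301 (18.3%). The 14 were chosen for high heat shock levels, so these counts are a description. mfs1 was the exception, with 1.59 and 2.11 RPM in diauxic shift and 2.44 and 1.25 in heat shock.

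In the upf1 deletion, grown without heat shock as far as the labels say, some of the same junctions were also more abundant. In 8 of the 14, the pooled upf1 deletion libraries were above the pooled ED668 libraries with a counting interval above 1, and in 1, the mamRNA junction, the interval was below 1. Of all 301 tested, the interval was above 1 in 80, or 26.6%, and below 1 in 48. The aha1 site had 25 and 21 reads in the upf1 deletion and 1 and 0 in ED668. The intron opposite to mrp7 had 58 and 55 reads in the upf1 deletion and 0 and 1 in ED668, and the one opposite to dbl4 had 94 and 79 in the upf1 deletion and 13 and 6 in ED668. For rad25, 13 and 10 reads in the upf1 deletion stood against 2 and 0 in ED668. sap49 had 34 and 26 reads in the upf1 deletion and 11 and 6 in ED668. The first SPNCRNA.648 intron had 21 and 15 in the upf1 deletion and 14 and 21 in ED668, a pooled ratio of 0.978 (95% counting interval 0.597 to 1.60). No heat shock library of the upf1 deletion is among the samples.

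**Figure D5:**
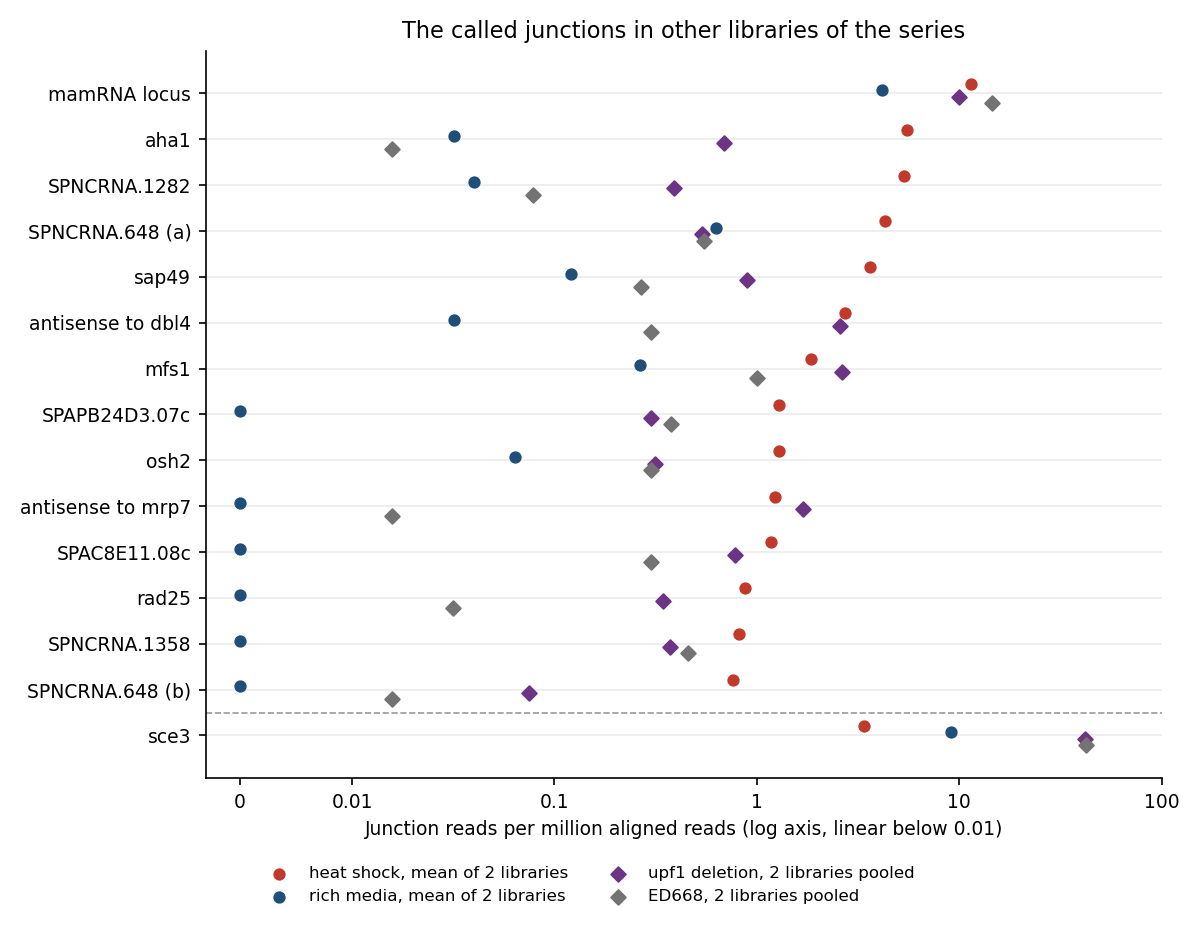
RPM, reads per 1000000 aligned reads (horizontal axis, logarithmic above 0.01) of the 15 called junctions in heat shock and rich media, as means of 2 libraries, and in the upf1 deletion and ED668, as 2 libraries pooled. For aha1, heat shock is the highest and the upf1 deletion lies between it and rich media, while for the mamRNA locus and sce3 the ED668 libraries are the highest.

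Lariat reads of the same introns came from the dbr1 deletion and were deposited as 1 sum per condition, so they have no replicate error. Over all junctions the sums were 47513 in heat shock and 118718 in rich media. The mamRNA intron had 6394 lariat reads in heat shock and 3755 in rich media, which is 13.5% and 3.16% of these sums. The aha1 site had 0 lariat reads in heat shock and 3 in rich media, and SPNCRNA.1282 had 0 in heat shock and 1 in rich media, although their junctions were read most often in heat shock. SPAC8E11.08c had 6 in heat shock and 153 in rich media, and sce3 had 4 in heat shock and 163 in rich media. Of the 14 junctions, 5 took a larger share of lariat reads in heat shock than in rich media, but only 7 had 10 or more lariat reads. The number over all tested junctions was not counted, so the 5 have nothing to be set against. Across the 171 tested junctions with 10 or more lariat reads, Spearman's rho between the RNA-seq log2 change and the lariat log2 ratio was -0.14. Lariats were prepared from total RNA and junctions from poly(A) RNA, so the counts are set side by side only.

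The 14 introns called higher ranged from 52 to 227 bases with a median of 77, against 88 over the 301 tested and 104 over all 10352. The branch point lay 8 to 19 bases before the 3′ site, with a median of 11.5 against 11 over the 301. The first 6 bases were GTATGT, a common start of annotated fission yeast introns, in 1 of the 14, at the mamRNA locus, against 50 of the 301 (16.6%). GTAAGT began 2 of the 14 and 69 of the 301 (22.9%). The first 3 bases were GTA in 12 of the 14 and in 90.0% of the 301. The exceptions were the aha1 site, GTTTGG, and the second SPNCRNA.648 intron, GTTGTT. The last 3 bases were TAG in 8 of the 14 and in 48.5% of the 301. These counts describe the letters and were not tested.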

How the data were processed

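Poly(A) RNA-seq and lariat sequencing of S. pombe were deposited by the authors as tables of branches with read counts per exon-exon junction and a PSI fraction per unannotated intron. Per the submitters' processing notes, the build was ASM294v2. The aligner and the counting rules are not given in the sources used here. Aligned reads per library came from the authors' deposited summary. The 11844 branches were reduced to 10352 distinct junctions, and every one starts with GT and ends with AG on the RefSeq genome, which was also used for gene names, sequences and annotated introns. Host loci were matched to a name in 7135 of 7172 cases.

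Junction counts were tested with edgeR 4.0.16 (R 4.3.3, quasi-likelihood, condition plus strain) over the 6 libraries of the wild type and the dbr1 deletion, with aligned reads as library sizes and at least 10 reads over the 6. The fit has 2 residual degrees of freedom, from the assumption that strains respond alike, and the common dispersion was 0.184. Each SE was taken as the absolute log2 change divided by the square root of the F statistic of its test. PSI was tested with limma 3.58.1 on the arcsine square root of the deposited fraction. Class sums were compared with exact permutation tests (SciPy 1.17.1). Ratios have exact 95% intervals that cover counting error only, and a count of 0 was set at 3 reads over the pair for a fold. That fold leaves out the counting error of the heat shock reads. On simulated counts of the 301 junctions, 70% of those changed by 3 on the log2 scale were recovered at a dispersion of 0.1, and 24% of those changed by 2. False calls were 6.67% and 4.0% of those made. The simulated dispersion is below the 0.184 of the data, so recovery in the data can be lower. TMM scaling, DESeq2 1.42.0, other filters, fewer libraries and fits without strain were the alternatives.

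The named junctions were the 10 largest called in each direction on reads and on PSI, filled to 10 by the largest decreases, the 10 with the most reads and up to 4 per gene list. The 4 other junctions called higher were added after their values were seen. The members and lists were chosen with earlier results of these data known.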

Additional observations from a re-analysis of the deposited data

Results flagged for a closer look

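In 6 classes and 6 named junctions with reads in all 4 libraries, the ratio of heat shock to rich media lay above 1 in one strain and below 1 in the other. The difference between strains was not tested, since each strain has 1 library per condition. For tom7 (the first intron), the ratio was 1.08 in the wild type and 0.721 in the dbr1 deletion, where the 95% counting interval was 0.634 to 0.820. For SPNCRNA.1597 it was 1.02 in the wild type and 0.618 in the dbr1 deletion (0.416 to 0.910). For the intron at chrII:1156883-1157074 it was 1.80 in the wild type (1.28 to 2.58) and 0.659 in the dbr1 deletion. For introns antisense to a noncoding RNA it was 1.496 in the wild type (1.21 to 1.85) and 0.968 in the dbr1 deletion. For introns in 3′ untranslated regions it was 1.04 in the wild type and 0.911 in the dbr1 deletion (0.843 to 0.983).

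In the remaining cases both counting intervals included 1. The wild type and dbr1 deletion ratios were 1.08 and 0.813 for downstream 3′ sites, 1.12 and 0.7999 for introns in 5′ untranslated regions, and 1.05 and 0.931 for introns of noncoding RNAs. They were 1.05 and 0.646 for introns of other annotations, 1.43 and 0.463 for rps1701, 1.43 and 0.842 for the ubc7 upstream 5′ site, and 0.819 and 2.63 for osh41.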

How the results depend on the processing

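The 14 junctions called higher on reads and the 1 called lower were 14 and 1 with TMM scaling or DESeq2's size factors, 10 and 1 with DESeq2, 12 and 1 with filterByExpr and 10 and 1 with no filter beyond 1 read. With no replicate block, that is with strain left out, they were 17 and 1, and the 14 were among the 17. With 4 libraries they were 22 and 1, and leaving out 1 library gave 2 to 8 higher and 0 to 1 lower. Fitted alone, the unannotated introns gave 13 higher and the alternate sites gave 2. The median log2 change was 0.46, and it was 0.29 with TMM, 0.28 with DESeq2's size factors, 0.12 with filterByExpr (53 above 0, 44 below), 0.058 with no filter beyond 1 read and 0.21 without the wild type heat shock library. On PSI, the 23 higher and 1 lower compare with 10 and 1 with 20 reads, 0 and 0 with 5 reads, 5 and 0 as deposited, 23 and 0 with 4 libraries and 18 and 1 with no replicate block, and leaving out 1 library gave 0 to 2 higher and 0 lower. The cause of these shifts was not tested. The ratio of heat shock to rich media for all alternate sites was 1.25 per aligned read and 1.02 as a share of all junction reads. No named junction reversed direction on a called value. Of 830 values of named junctions under alternatives, 691 stayed on their side of the threshold, 128 lost a call and 11 gained one. Depth limits the tests, since 8897 of the 10352 junctions had no read in the 4 libraries.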
